A study of Mus musculus with 12 samples.

Results

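The Akt, mTOR and insulin-like growth factor (IGF) signalling genes examined here were Igf1, Igf1r, Akt1, Akt2, Tsc1, Mtor, Rptor and Rictor, 8 genes taken by symbol from the mRNA peak lists of a methylated RNA immunoprecipitation sequencing (MeRIP-seq) experiment. Of the 8 genes, 7 had a peak in at least 1 list, out of 10030 genes with a peak in any list, and Akt2 had none. The cells were mouse neural stem cells (NSCs) of the immortalised line C17.2, of WT genotype. The control group was kept in standard oxygen. The hypoxia/reoxygenation (H/R) group spent 12 h in 5% O2 and was then returned to standard oxygen for 48 h, a cell model of ischemia followed by reperfusion. Each group had 3 immunoprecipitates (IP), enriched for N6-methyladenosine (m6A) with an antibody, and 3 unselected input samples, and the peak lists of the resulting 3 control and 3 H/R libraries carry the letters A, B and C. The labels do not say that the samples came from separate cultures, so the p-values cover the variation among the libraries at hand, possibly of technical origin, and C17.2 is 1 line and not tissue.

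IGF-1 is a secreted growth factor that binds the receptor tyrosine kinase encoded by Igf1r, which activates PI3K and, through it, the kinases Akt1 and Akt2. Akt relieves the brake that hamartin (Tsc1) and its partner tuberin place on mTOR, a kinase that works in mTORC1 with Raptor (Rptor) to promote protein synthesis and in mTORC2 with Rictor to phosphorylate Akt. In NSCs this pathway is known for its part in growth, proliferation and survival. m6A is written on mRNA by the METTL3 and METTL14 complex, often within the letters GGAC and often near stop codons and in long exons.

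The 6 mRNA lists held between 7863 and 12180 peaks in the control libraries and between 13954 and 22038 in the H/R libraries. The fold enrichment of a peak is the ratio of IP signal to the local background given by the peak caller, and its median was 21.78, 33.89 and 27.98 in control A to C against 9.34, 15.49 and 10.05 in H/R A to C. The p score is 10 times the -log10 of the p of the peak. Each H/R list was thus longer than each control list and had a lower median fold. A gene without a peak is a gene not listed, which is not an absence of m6A. Read depth was not used here, and since the study lists fewer uniquely mapped input reads for every control library than for every H/R library, input depth and group cannot be told apart. Of 8 NSC markers, Nes, Sox2 and Notch1 had a peak in all 6 libraries and Vim, Pax6 and Fabp7 in none, while none of the 4 microglial markers was called in any library and 0 to 2 of the 3 fibroblast markers were called per library. Of 5 neuronal and 5 oligodendrocyte markers 0 to 1 were called per library, and of 4 astrocyte markers 1 was called in control B and C and 0 in the others. A peak needs reads of its transcript as well as m6A, and RNA levels are not in the lists and were not analysed here.

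The 7 genes had 95 peaks, which merged into 32 regions where peaks of a gene overlapped by at least 1 base. Regions are numbered from the 5′ end of each gene. Of the 32 regions, 8 were called in all 6 libraries, where 21.9% of all 27132 merged regions were. Another 4 were called in all 3 H/R libraries and in no control library (H/R-only), against 6.21% of all regions. No region was control-only, against 0.059%. The stretches below come from 9 of these 12 regions, on the transcript strand of mm10, with GGAC and GGACT in capitals. Each shows the GGACT closest to the middle of the stretch called in most libraries, or the GGAC where a region has no GGACT. They are shown because each region was called either in every library or in all 3 H/R libraries and no control library. The only GGACT of Rptor region 2 lies upstream of the H/R C peak of that region, which starts at base 119781930. That stretch is thus under the peaks of the other libraries and not of H/R C.

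Igf1r region 2, exon 2, all libraries, chr7:68003911-68003931, plus strand: aaggccgaGGACTaccgaagc
Igf1r region 5, last exon, all libraries, chr7:68227488-68227508, plus strand: ggttccggGGACTcggcctgg
Akt1 region 1, exon 1, H/R-only, chr12:112674099-112674119, minus strand: gcgcgcccGGACgccgctgcc
Tsc1 region 3, exon 15, H/R-only, chr2:28676127-28676147, plus strand: agcctctgGGACTcagggctc
Tsc1 region 7, last exon, all libraries, chr2:28687132-28687152, plus strand: cacatcatGGACTacaatgag
Rptor region 2, within intron 7, all libraries, chr11:119781813-119781833, plus strand: ttccttttGGACTttgaatca
Rptor region 3, last exon, all libraries, chr11:119899322-119899342, plus strand: agttgaaaGGACTgacaGGAC
Rictor region 2, exon 31, all libraries, chr15:6786987-6787007, plus strand: atGGACacGGACTgtggaagt
Rictor region 3, last exon, all libraries, chr15:6797481-6797501, plus strand: gctgactaGGACTgactagga

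A further 2 of the 12 are shown as whole short coding exons, and Igf1 region 4, which holds no GGAC on the transcript strand, is not shown. Igf1r region 4 was exon 20 (135 bases, chr7:68218402-68218536, plus strand, codons 1198 to 1243), which carried the highest fold of any peak of these genes and held GGAC at 2 places.
Igf1r region 4: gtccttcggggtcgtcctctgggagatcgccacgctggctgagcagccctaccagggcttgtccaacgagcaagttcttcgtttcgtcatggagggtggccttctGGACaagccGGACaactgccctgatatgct
Igf1 region 2 was exon 3 (182 bases, chr10:87913619-87913800, plus strand, codons 74 to 134), an H/R-only region with no GGAC on either strand.
Igf1 region 2: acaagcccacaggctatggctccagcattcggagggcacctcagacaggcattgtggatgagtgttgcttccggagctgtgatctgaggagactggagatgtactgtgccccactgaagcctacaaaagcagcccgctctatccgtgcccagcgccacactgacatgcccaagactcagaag

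GGAC was searched on both strands, and every GGACT counts as a GGAC too. All 8 regions called in every library held GGAC on the transcript strand, with 70 matches there and 60 on the opposite strand. Of the 4 H/R-only regions, 2 held it on the transcript strand (Akt1 region 1 with 3 matches and Tsc1 region 3 with 4), and Igf1 regions 2 and 4 did not. On the opposite strand Akt1 region 1 had 2 matches, Tsc1 region 3 had 1 and Igf1 region 4 had 4. The 4 regions together had 7 matches on each strand. Long regions hold such a short motif by length alone, so windows of equal length were also compared. In the central 101 bases, 13 of 26 regions of these genes held GGAC on the transcript strand and 10 on the opposite strand. Over all 21758 regions of sufficient length with a known strand, 37.1% and 29.8% of the windows did. GGACT was found in 5 of the 26 windows on the transcript strand and in 1 on the opposite strand, beside 11.0% and 9.54% of all windows. These counts describe letters and not methylated sites.

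**Figure D1:**
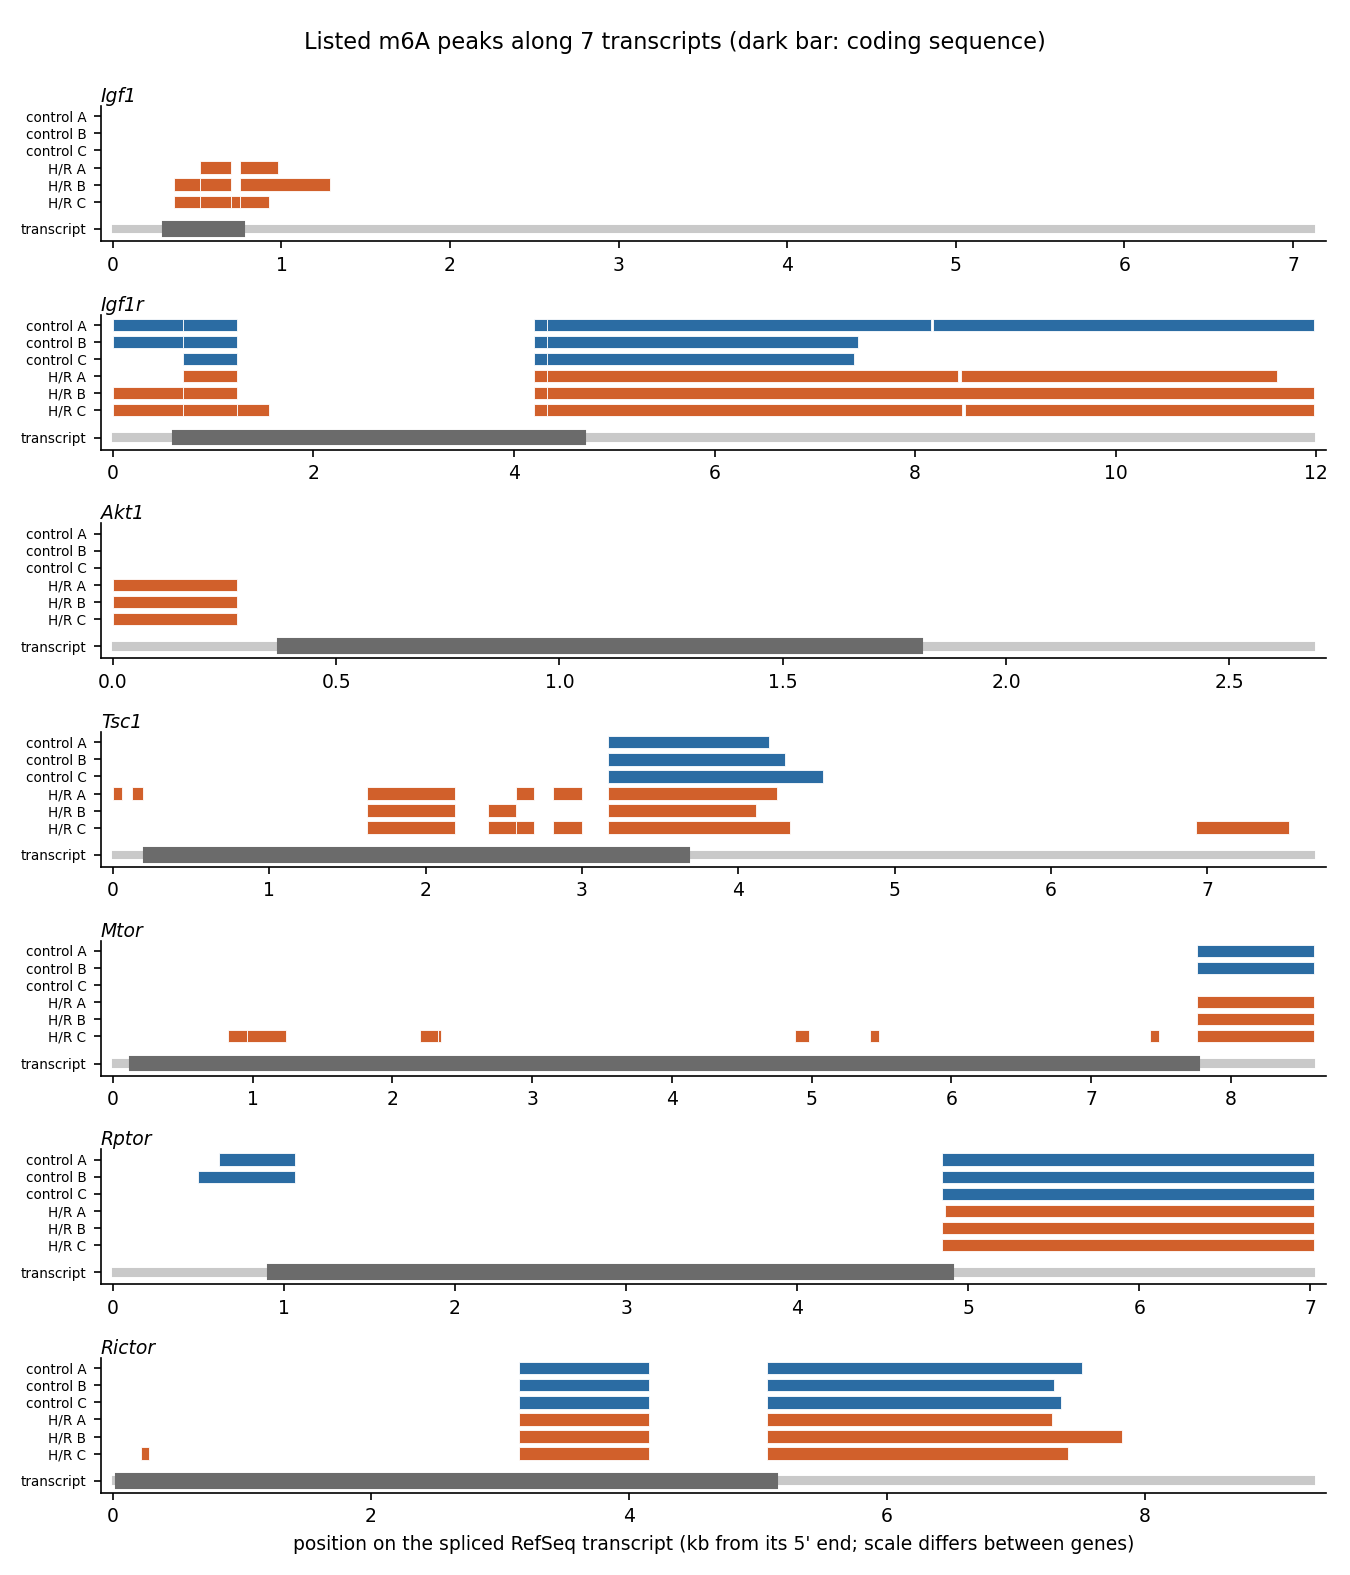
Listed peaks of each library (control blue, H/R orange) along the spliced RefSeq transcript of 7 genes, in kb from its 5′ end, with the coding sequence as a dark bar; parts of peaks outside the drawn transcript, such as Rptor region 2, are not shown. Peaks in the last exon recurred across libraries in Igf1r, Tsc1, Rptor and Rictor, and the Igf1 and Akt1 rows are empty in the 3 control libraries.

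Igf1, the ligand, was listed after H/R and in no control library. H/R A to C listed 2, 3 and 4 peaks and each control library 0. The groups did not overlap (two-sided exact permutation p = 0.1, the smallest that 3 against 3 allow). Exon 3 was called in each H/R library with a fold of 5.18, 14.73 and 19.91. The start of the last exon, mostly 3′UTR (region 4), was called with a fold of 6.44, 16.45 and 8.78. H/R A thus had the lowest fold at both places. Exon 2 (region 1) was called in H/R B and C, and an alternative last exon that GENCODE vM21 gives to a shorter Igf1 transcript (region 3) in H/R C alone. The Igf1 peaks covered 412, 876 and 903 bases of RNA in H/R A to C.

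Igf1r, the receptor, was called in every library and had the most peaks of these genes, 26 in total. Its peak number was 5, 4 and 3 in control A to C and 4, 4 and 6 in H/R A to C, so the groups overlapped, and without H/R C their means were equal. A set of 3 regions was shared by all 6 libraries, namely exon 2, exon 20 and the last exon. The last exon is 7648 bases long, 95.0% of it 3′UTR, and was listed as 1 peak in control B, control C and H/R B and as 2 in the others, so peak number is not a number of methylated sites. The peaks of Igf1r covered 9002, 4481 and 3745 bases in the control libraries and 7934, 9025 and 9316 in the H/R libraries (two-sided exact permutation p = 0.2). Control A lay within the H/R range, and the last exon was listed only in part in control B and C. The difference in group means was 3020 bases, 4650 without control A and 3950 with lists of equal length. Without control A and at equal length, every H/R library was above every control library (exact permutation p = 0.1). Leaving out any other library gave 2020 (without control C) to 3430 (without H/R A), with exact permutation p from 0.2 to 0.3. Exon 3 (region 3) was called in H/R C alone, with a fold of 3.93. The genes with the peak numbers most like those of Igf1r over the 6 libraries were Slmap, Mbtps1 and Setbp1, with a summed absolute difference of 1, 2 and 2 peaks, and 5 genes in all lay within 2.

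Akt1 had a single region, its whole first exon of 277 bases in the 5′UTR. No control library listed it, and H/R A to C listed it with a fold of 18.48, 14.35 and 13.8 (exact permutation p = 0.1 for 0 against 1 peak). Its ends were those of the exon each time, and listed peaks are the parts kept on exons. The p scores were 415.9, 93.26 and 255.79, so the evidence was weakest in H/R B. Akt2 had no peak in any library and no other list held a peak at its locus.

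Tsc1, which encodes the TSC complex subunit hamartin, had 1 peak in each control library, and H/R A to C had 6, 3 and 6. Every H/R library was above every control library (exact permutation p = 0.1). The shared peak (region 7) began at the start of the last exon, in the last part of the coding sequence, and ran into the 3′UTR, with a fold of 41.28, 49.42 and 19.34 in control A to C and 35.34, 31.5 and 20.12 in H/R A to C. These ranges overlapped. The H/R-only peak was exon 15 (region 3, codons 476 to 662), with a fold of 8.82, 9.61 and 26.86. The other H/R peaks, with folds from 4.34 to 12.35, were at coding exons 18, 19 and 21 in 2 H/R libraries each, at 2 first exons in H/R A alone and farther along the 3′UTR in H/R C alone. The peaks covered 1034, 1136 and 1376 bases in the control libraries and 2140, 1694 and 2802 in the H/R libraries (exact permutation p = 0.1). Tsc2, the gene of its partner tuberin, had no peak in any library.

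Mtor, the kinase itself, had 1, 1 and 0 peaks in control A to C and 1, 1 and 8 in H/R A to C. The peak that recurred was the last exon (region 8, 841 bases, 98.1% of it 3′UTR), with a fold of 16.87 and 23 in control A and B and of 5.47, 9.23 and 6.81 in H/R A to C. Control C did not list it. The 7 other peaks, at coding exons, were in H/R C alone, with folds from 4.34 to 8.35. Without H/R C, the H/R libraries listed Mtor as control A and B did.

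Rptor, the mTORC1 scaffold, had 3, 3 and 2 peaks in control A to C and 2 in each H/R library. Control C equalled the H/R libraries, so the groups touched. The last exon (region 3, 2178 bases, 96.8% of it 3′UTR) was called in all 6 libraries. So was region 2, which lies between exons 7 and 8 of the RefSeq transcript, inside an exon of a transcript that GENCODE vM21 annotates as a retained intron. Its fold was 42.35, 38.67 and 27.07 in control A to C and 9.8, 15.31 and 15.86 in H/R A to C. Its 5′ border moved between libraries and its 3′ border did not, and its length ran from 352 bases in H/R C to 788 in H/R A. The first exon (region 1, mostly 5′UTR) was in the mRNA lists of control A and B alone, with p scores of 52.32 and 52.92, close to the lowest listed. A peak at this exon in H/R C was placed in the list of long noncoding RNA, and H/R A and B had no peak at this exon in any list.

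Rictor, the mTORC2 scaffold, had 2 peaks in every library but H/R C, which had 3. Exon 31, a long coding exon of 1006 bases (codons 1043 to 1378), was called in full in all 6 libraries. Its fold was 24, 30.69 and 19.6 in control A to C and 13.89, 18 and 15.54 in H/R A to C. The last exon, mostly 3′UTR, was called in all 6 with a length from 2210 to 2754 bases, and covered bases of the gene overlapped between the groups. The extra peak of H/R C was exon 4, 65 bases long.

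**Figure D2:**
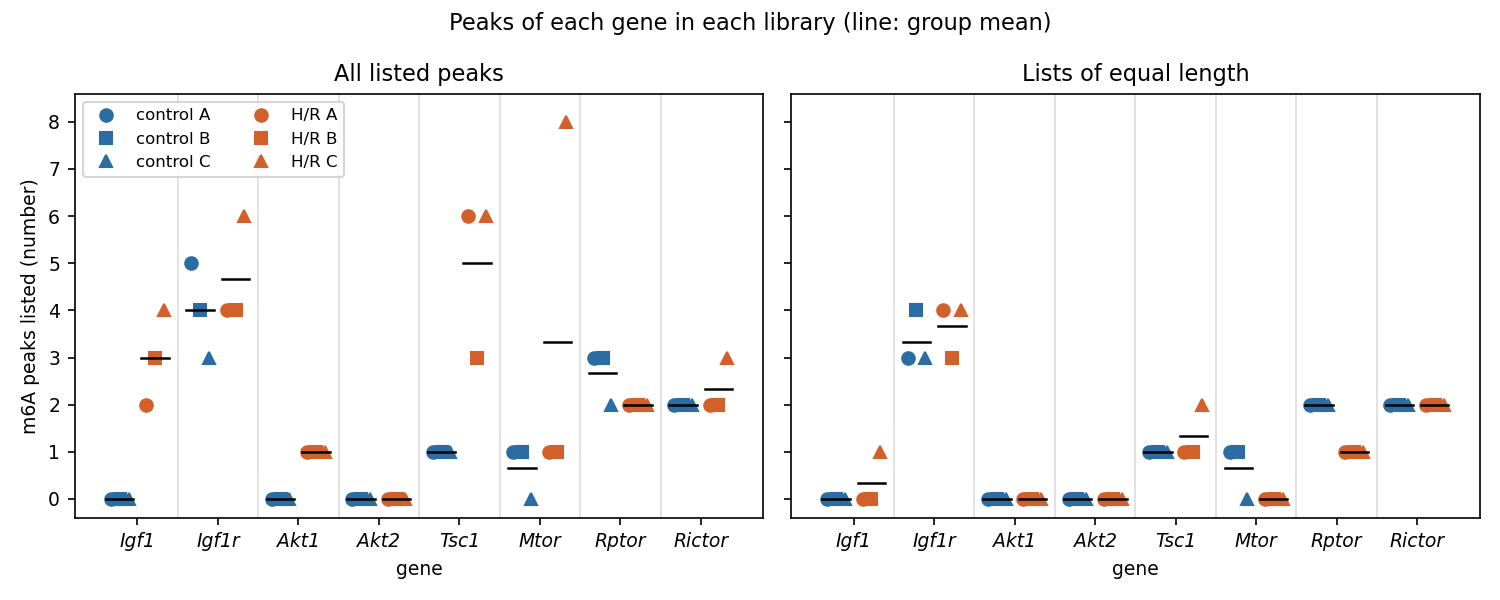
Number of listed peaks of each gene in each library (control blue, H/R orange; circle, square and triangle for libraries A, B and C; line, group mean), for all listed peaks on the left and with each list held to its 7863 best peaks by p score on the right. On the left Igf1, Akt1 and Tsc1 have no overlap between groups and Mtor reaches 8 in H/R C alone, and on the right none of these 3 genes keeps separate groups.

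H/R-only genes were Igf1 and Akt1, 2 of the 8, while 4.96% of all 10030 genes met the same rule. The 10030 are genes with a peak in any list, and the 8 include Akt2, which had none. More peaks in every H/R library than in every control library were found for Igf1, Akt1 and Tsc1, 3 of the 8, against 14.8% of all genes. The same 3 genes had more covered bases in every H/R library, against 16.3% of all genes. None of the 8 was control-only, against 0.0698% of all genes, none had more peaks in every control library, against 0.12%, and none had more covered bases in every control library, against 1.09%. Igf1r, Tsc1, Rptor and Rictor, 4 of the 8, were called in all libraries, as were 39.5% of all genes.

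These calls depended on the length of the lists. When each list was held to its 7863 peaks with the highest p scores, the length of the control C list, Akt1 was in no library, Igf1 had 1 peak in H/R C alone, and Tsc1 had 1 peak in every library but H/R C, which had 2. No gene was then H/R-only, beside 1.13% of all genes, and no gene had more peaks in every H/R library, beside 2.51%. Rptor then had 2 peaks in each control library and 1 in each H/R library, beside 2.22% of all genes with more peaks in every control library. In covered bases none of Igf1, Akt1 and Tsc1 kept separate groups, with differences in group means of 60.7 (exact permutation p = 1.0), 0 and 72 bases (exact permutation p = 0.9). Igf1r then had more covered bases in every H/R library, beside 3.97% of all genes, and Rptor in every control library, beside 4.81%. The lowest p score kept was 180.92, 72.53 and 50 in control A to C but 567.29, 291.85 and 602.69 in H/R A to C. With a fold of at least 10, Akt1 was still H/R-only and Igf1 was not, beside 1.58% of all genes. With a p score of at least 100, Igf1 was and Akt1 was not, beside 5.97%. The shares of all genes in this paragraph are over the genes that still had a peak under the setting. Those numbered 6444 at equal length, 8015 at the fold limit and 8811 at the p score limit. The deposited false discovery rate of the 95 peaks lay between 24.98% and 100%.

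The fold of the shared regions was lower in the H/R libraries as deposited. For 5 of the 8 regions called in all 6 libraries, every H/R value lay below every control value, which 54.2% of all 5931 such regions showed as well. The highest of these values was that of Igf1r exon 20, at 63.22, 47.65 and 80.68 in control A to C against 21.68, 38.14 and 26.81 in H/R A to C (exact permutation p = 0.1). By gene, the highest fold of Igf1r, Rptor and Rictor was lower in every H/R library, 3 of the 4 genes called throughout, beside 53.6% of the 3966 genes called in all 6 lists, and Tsc1 overlapped.

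Divided by the median fold of the same list, no shared region was lower in every H/R library, and 4 of the 8 were higher in every H/R library, namely Igf1r regions 2 and 5, Tsc1 region 7 and Rictor region 2, beside 31.8% of all such regions. Igf1r exon 20 then stood at 2.9, 1.41 and 2.88 times the list median in the control libraries and 2.32, 2.46 and 2.67 in the H/R libraries, which overlapped. Tsc1 region 7 stood at 1.9, 1.46 and 0.691 against 3.78, 2.03 and 2 times the median. By gene, 1 of the 4 (Tsc1) was higher in every H/R library on this scale, beside 33.7% of all genes called throughout.

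**Figure D3:**
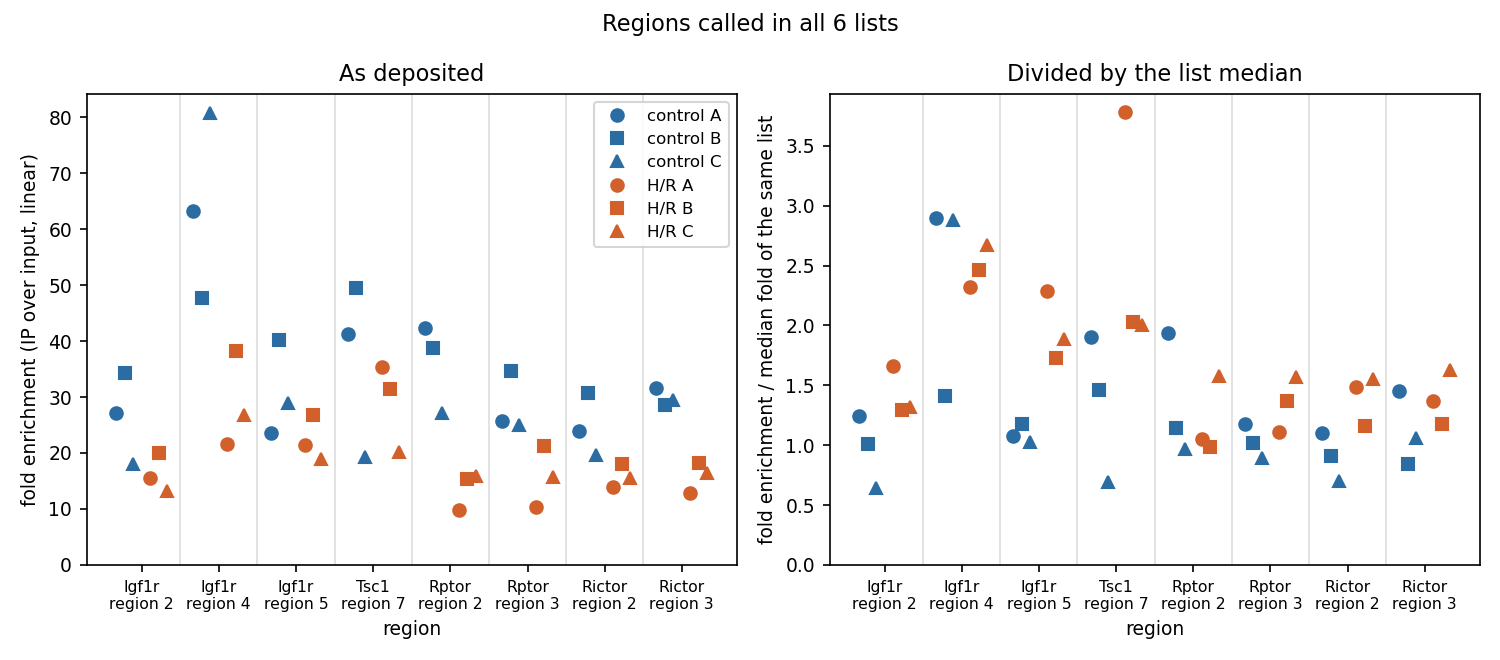
Fold enrichment of the 8 regions called in all 6 lists, as deposited (left, linear axis) and divided by the median fold of the same list (right), with 1 point per library (control blue, H/R orange). On the left 5 regions have every H/R point below every control point, and on the right none has and 4 have every H/R point above.

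The share of peaks in coding sequence was higher in each H/R library than in each control library. Peak centres fell in coding sequence for 25.0%, 27.3% and 37.5% of peaks in control A to C and for 38.9%, 43.8% and 60.0% in H/R A to C, out of 12, 11 and 8 and of 18, 16 and 30 peaks. No test was run on this share. The difference between the group means was 17.6 percentage points, and 11.4 without H/R C, which holds the 7 coding peaks of Mtor. Over all genes the share was 52.6%, 54.2% and 55.1% in control A to C and 55.4%, 56.2% and 56.8% in H/R A to C, also higher in each H/R library, among the 87.1% to 87.4% of listed peaks whose centre lay on the RefSeq model of their listed transcript. Counted by bases the share was 14.0%, 18.5% and 21.1% in the control libraries and 19.1%, 17.6% and 23.5% in the H/R libraries, which overlapped. Most covered bases, from 60.1% to 71.8% per library, were 3′UTR.

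The rest of the pathway was described with a list of 114 further genes of IGF, insulin, PI3K, Akt and mTOR signalling, of which 83 had a peak in at least 1 library. Of these 83, 9 (10.8%) had more peaks in every H/R library and 2 of them (2.41%) were H/R-only, shares below the 14.8% and 4.96% of all genes. None was control-only or had more peaks in every control library. The 2 H/R-only genes were Slc38a9, a lysosomal amino acid sensor upstream of mTORC1, with 1, 2 and 2 peaks in H/R A to C, and Tfeb, a transcription factor of lysosomal genes that mTORC1 holds in the cytoplasm, with 1 peak in each. The other 7 were Pik3c3 and Pik3r4, the catalytic and regulatory subunits of the class III PI3K, Phlpp1, a phosphatase of Akt, Prkaa1, a catalytic subunit of AMPK, Sesn2, a leucine sensor, and Foxo4 and Foxo6, transcription factors that Akt phosphorylates. Phlpp1 had 2 peaks in each control library, and H/R A to C had 7, 3 and 8. For Pik3r4 the control libraries had 4 each and H/R A to C had 6, 7 and 7. At equal list length none of these 9 kept the call, and 2 other genes met it, Pik3r3 and Pik3c2b. They were 3.45% of the 58 genes of the list with a peak at that length, beside 2.51% of all genes. Pik3c2b was also H/R-only there, 1.72% of the 58 beside 1.13% of all genes.

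**Figure D4:**
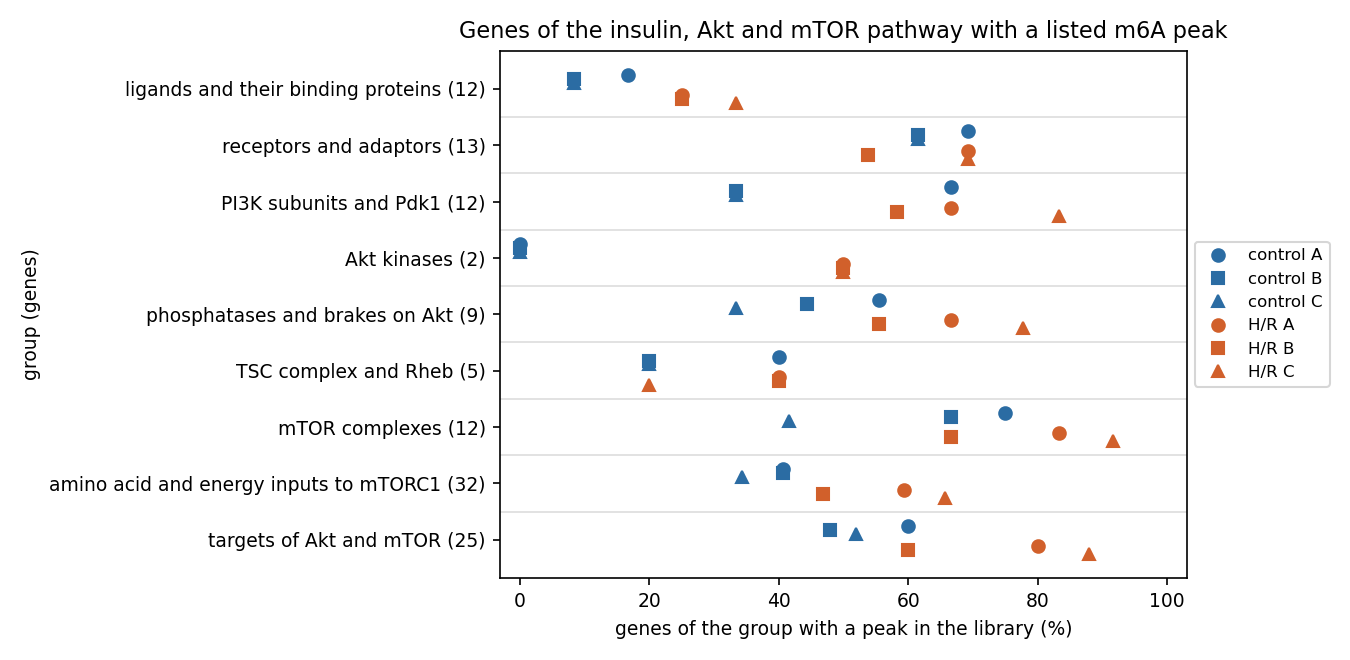
Share of the genes of each group of the pathway list, the 8 genes included, with a peak in each library (control blue, H/R orange; number of genes in brackets). Receptors and adaptors lie between 53.8% and 69.2% in both groups, and the Akt kinases (Akt1 and Akt2) are at 0 in the control libraries.

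Among the direct partners, receptors and adaptors were called widely in both groups. Irs2, an adaptor of the insulin and IGF-1 receptors, had 2 peaks in every library, and its highest fold ran from 67.95 to 100.47 in the control and from 48.73 to 64.57 in the H/R libraries. Over the list median the order turned, with 3.29, 2.96 and 2.43 in control A to C and 5.22, 3.57 and 6.42 in H/R A to C. Of the 3966 genes called in all 6 lists, 53.6% were lower in every H/R library as deposited. Over the list median 33.7% were higher in every H/R library. Irs1, the related adaptor, had 2, 1 and 1 peaks in control A to C and 2 in each H/R library. Insr, the insulin receptor, had 2, 1 and 1 against 2, 1 and 3, and Igf2r, which clears IGF-2, had 1, 2 and 1 against 2, 0 and 3. The peak numbers of these 3 genes overlapped between the groups. Igf2, the second IGF ligand, and Mlst8, a subunit of both mTOR complexes, had no peak in any library. Mapkap1, which encodes the mTORC2 subunit SIN1, had 3, 1 and 2 peaks in control A to C and 4, 3 and 5 in H/R A to C (exact permutation p = 0.2). Deptor, an inhibitor of mTOR, was called in control A, control B, H/R A and H/R C with 1 peak each.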

How the data were processed

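Per the labels and the study's methods, the authors trimmed reads with cutadapt (version 1.9.3), aligned them with HISAT2 (version 2.0.4) to mm10, called peaks with MACS for each IP against its input, and kept the parts on exons. The deposited lists give for each peak a fold enrichment (ratio), a p score and a false discovery rate in percent. Deposited coordinates have 0-based starts and are printed 1-based, and lengths were computed from them. The 6 mRNA lists were compared, and the lncRNA and circRNA lists were searched at the loci of these genes. Genes were matched by symbol, and the 8 genes and the pathway and marker lists were chosen with earlier results of these data known. All 8 genes are named, with pathway genes that met a call rule and 9 fixed partners. A further partner is not reported here. Groups were compared by two-sided exact permutation tests of 3 against 3 libraries, scripts were tested on simulated data, and alternatives were equal list lengths (7863 peaks), a fold of at least 10, a p score of at least 100, another overlap rule and leaving out each library. Exons and sequences came from RefSeq and GENCODE vM21 models on GRCm38.p6, the assembly behind mm10. A region took the model of its listed transcript or, failing that, the model covering most of it. Peaks centred within 100 bases of a start or stop codon formed classes of their own, for all genes as for these. Read numbers per library are not in the lists, so no counting interval is given. Python 3.11.15, pandas 2.3.3 and samtools 1.23.1 were used.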

Additional observations from a re-analysis of the deposited data

Results flagged for a closer look

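The list of long noncoding RNA of H/R C, which no comparison used, held peaks under the names of 2 of these genes at exons where the mRNA list of H/R C had none, and no control list of long noncoding RNA held them. A peak of 1067 bases covered the whole first exon of Rptor with a fold of 8.19 and overlapped Rptor region 1, which the mRNA lists of control A and B hold. A peak of 71 bases at another Rptor exon had a fold of 6.52, and a peak of 400 bases at a Tsc1 exon had a fold of 5.57. These are exons of transcripts that the lists annotate as overlapping the gene on the same strand. Adding the first of these peaks would give Rptor 3 peaks in H/R C, as in control A and B.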

How the results depend on the processing

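No paired analysis was possible because the libraries carry letters and the labels carry replicate numbers, with nothing that joins them. H/R-only genes numbered 2 with all listed peaks, 0 at equal list length, 1 with a fold of at least 10 and 1 with a p score of at least 100. Genes with more peaks in every H/R library numbered 3, and 0, 1 and 1 under these settings. Of all genes listed under each setting, 14.8%, 2.51%, 3.39% and 15.7% met this rule. Genes with more peaks in every control library numbered 0, but 1 (Rptor) at equal length and likewise without control C, so the range on leaving out a library was 0 to 1. Leaving out any library kept H/R-only genes at 2, genes with more peaks in every H/R library at 3 and control-only genes at 0. A gene or region that meets such a rule with all libraries also meets it with fewer. On leaving out a library, a count of genes or regions that meet a rule can thus rise but not fall, here and below. The share of all genes was not computed without a library. The total peak number of the 8 genes was higher in the H/R group by a mean of 11 per library, by 2.33 with a fold of at least 10 and by 8 with a p score of at least 100, and was -0.667 at equal length. Leaving out a library gave 6.67 (without H/R C) to 13.7. The difference in covered bases was 5300, 2960 at equal length and 3960 to 7050 on leaving out a library. Genes with a lower highest fold in every H/R library numbered 3 as deposited, 3 to 4 without a library, and 0 over the list median. Shared regions numbered 8 to 9 and H/R-only regions 4 to 6 without a library, alternatives chosen after seeing the data, and H/R-only regions numbered 0 at equal length. The difference in the share of coding peaks, 17.6 percentage points, was 2.2 by bases and 11.4 (without H/R C) to 22.0 on leaving out a library. Of 140 values for single genes under other settings, 124 kept their direction, 6 fell to no difference and 10 turned. Those that turned were, as H/R mean minus control mean, the peak number of Mtor at equal length and with a fold of at least 10 (-0.667 in each), that of Rptor with a p score of at least 100 (0.667), covered bases of Mtor at equal length (-561) and of Rictor without H/R B (-12.5, and up to 260.0 without another library), the highest fold of Tsc1 without control B (0.923, and down to -14.1 without another), and the highest fold over the list median of Rictor (0.294), Rptor (0.00042), Tsc1 (1.48) and Igf1r (0.0863). The causes were not tested beyond what each setting removes. With 3 libraries a group, the exact permutation test of a single gene cannot go below 0.1.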

Other observations

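The circRNA lists of all 6 libraries held a peak of the same circular RNA of Igf1r, classed as exonic, at exon 2 (546 bases). Its borders and fold were those of Igf1r region 2 in the mRNA list of each library. The linear and the circular RNA thus cannot be told apart there. The fold of this peak was 27.09, 34.36 and 17.98 in control A to C and 15.5, 19.95 and 13.25 in H/R A to C. A peak of Gm11761, an RNA antisense to an intron of Rptor, was in the list of long noncoding RNA of control A, H/R A and H/R B, with a fold of 26.15, 13.82 and 17.11, and did not overlap an exon of Rptor.

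Listed peaks are the parts kept on exons, so a border at an exon end can come from that step. Of the 95 peaks, 55 began and ended within 1 base of the ends of an annotated exon, 38 did so at 1 end and 2 at neither end. Of the 32 regions, 13 were called in 1 library each, beside 35.0% of all 27132 merged regions, and 11 of these in H/R C, which had the longest list, beside 21.6%. In H/R lists alone were 21 regions, those 13 included, beside 50.5% of all regions, and 1, the first exon of Rptor, was in control mRNA lists alone, beside 2.56%.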
